A study of Mus musculus with 4 samples.

Results

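The genes described here carry out antigen presentation by major histocompatibility complex (MHC) class II: H2-Aa, H2-Ab1, H2-Eb1, Cd74, H2-DMa, H2-DMb1, H2-Oa and Ciita. These 8 genes, of 33696 in the count matrices, were chosen by their symbols, and their unique molecular identifiers (UMIs) were followed across the cell classes of 4 single-cell RNA-seq libraries of the mouse digit tip. All mice were female C57BL/6 of 6 to 8 weeks, and each library pooled hindlimb digits from 10 mice, taken 8 days after amputation through the terminal phalanx (P3) and dissociated with collagenase I, collagenase II and dispase. One library came from mice fed chow with SAR131675, an inhibitor of the lymphatic growth factor receptor VEGFR3, at 30 mg per kg of chow for 8 days per the design text, whereas the methods start the chow before the amputation. Its control received the matched diet without the inhibitor. The third library came from the limb from which inguinal and popliteal lymph nodes had been removed surgically (lymph node removal, LNR), and the fourth from the sham side, and both controls are labelled as untreated. Each condition was 1 library in a batch of its own, so treatment, batch and pool cannot be told apart and no test between conditions was possible.

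MHC class II molecules are pairs of an alpha and a beta chain that display peptides from endocytosed protein to CD4+ T cells. H2-Aa and H2-Ab1 encode the chains of I-A, and H2-Eb1 encodes the beta chain of I-E. Cd74 encodes the invariant chain that escorts new class II molecules and blocks their groove. H2-DMa and H2-DMb1 encode chains of H2-M, which exchanges the remnant of the invariant chain for peptide, and H2-Oa encodes the alpha chain of H2-O, which restrains H2-M. Ciita is the coactivator that switches the set on. Dendritic cells, Langerhans cells of the epidermis and B cells are the classical sites of expression, and interferon gamma can induce the genes in other cells. Mice of the H-2b haplotype, such as C57BL/6, make no I-E because their H2-Ea gene is defective.

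The start-site sequences of 5 members are given because class II promoters share an upstream module, whose X box and Y box are bound by RFX and NF-Y. They are the 120 bases before the annotated start in the RefSeq promoter table (GRCm38.p6, chromosome 17), which held 6 starts for 5 of the 8 members. The count files use GRCm39, so these coordinates belong to the table alone. All are 5′ to 3′ on the strand of the gene, and capitals mark every match to a Y box (GATTGG or, on the other strand, CCAATC) or an X box (AAC, any 2 bases and ATGATG, searched on both strands).
H2-Eb1, chr17:34305747-34305866, plus strand: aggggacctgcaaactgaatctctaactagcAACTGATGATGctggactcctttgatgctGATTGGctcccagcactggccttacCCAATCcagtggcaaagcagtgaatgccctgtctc
H2-DMb1, chr17:34153071-34153190, plus strand: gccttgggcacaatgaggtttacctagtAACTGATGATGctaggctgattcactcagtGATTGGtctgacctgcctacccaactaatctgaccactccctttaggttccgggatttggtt
H2-Aa, chr17:34287824-34287943, minus strand: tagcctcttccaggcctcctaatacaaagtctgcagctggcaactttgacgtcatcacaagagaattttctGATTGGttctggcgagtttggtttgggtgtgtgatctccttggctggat
H2-Oa, chr17:34092259-34092378, plus strand: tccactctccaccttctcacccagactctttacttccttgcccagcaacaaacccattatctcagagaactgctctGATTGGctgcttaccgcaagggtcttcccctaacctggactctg
H2-DMa, upstream start, chr17:34122712-34122831, plus strand: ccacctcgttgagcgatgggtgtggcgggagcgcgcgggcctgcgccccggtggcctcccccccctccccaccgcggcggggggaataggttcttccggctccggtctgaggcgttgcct
The H2-Eb1 and H2-DMb1 windows held an X box followed by a Y box, a combination found within 250 bases before 10 of 32851 promoters (0.0304%). The X box, with or without a Y box, was found in 0.119% of promoters, and the Y box, with or without an X box, in 14.6%. The H2-Aa and H2-Oa windows held 1 Y box each and no X box of these letters. The window of the upstream H2-DMa start held neither motif, and the 250 bases before that start held 27 CG dinucleotides, against 0 to 3 before the starts of the other 4 genes. The second annotated H2-DMa start, at which the window again held neither motif, had a Y box farther upstream within 250 bases. These matches describe letters only and were not linked to the counts.

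The libraries held 21669 to 38464 barcodes and 168507188 to 585284877 UMIs. Barcodes with 200 to 5500 genes, at most 30000 UMIs and at most 10% mitochondrial UMIs were kept, which left 29076 cells of the SAR131675 library, 24030 of its diet control, 19827 of the LNR library and 20669 of the sham library. Values for 4 libraries follow that order throughout. Median depth was 11316 and 10712 UMIs per cell in the SAR131675 pair, against 5725 and 5851 in the LNR pair. The files name Cell Ranger 8.0.1 for the first pair and 6.1.2 for the second, so levels are set side by side within a pair and the pairs cannot be told apart from their processing and depth. Libraries of a pair shared 210 and 101 barcode sequences, and libraries of different pairs shared at most 2. Clusters were made without the 8 members or the genes of the pathway lists among the variable genes. Cell type markers were not left out there, so the marker genes that gave the "-like" names could also shape the clusters. Of all cells, 8.26% to 15.4% stayed unnamed. Scrublet, set to expect 0.8% doublets for every 1000 cells, called fewer than that in each library, at 0.907% to 7.41% of cells. Calls were uneven within the SAR131675 pair, at 4.67% and 0.907%, and the called cells were left in.

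The member genes gave 241053, 157155, 125333 and 143850 UMIs. Immune clusters were 6.57%, 5.81%, 12.4% and 10.8% of cells and held 94.8%, 95.3%, 95.7% and 93.7% of these UMIs, while they held 3.75% to 8.16% of all UMIs. With classes taken from markers in each barcode instead of clusters, the mean immune share fell from 94.9% to 37.2%. That rule named a barcode after the class with most of its markers found, and ties stayed unnamed. The keratinocyte list is the longest, so immune barcodes with keratinocyte UMIs can leave the immune classes. How much of the fall came from this was not tested. Langerhans-like cells (led by Cd207 and H2-M2) and conventional dendritic-like cells (led by Mgl2, Tnip3 and Ear2) together held a mean of 61.3% of the member UMIs over the libraries, or 17.5% with classes taken from markers in each barcode.

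The 8 genes summed to 56092, 57579, 80712 and 75450 UMIs per 1000000 UMIs of the class (CPM) in Langerhans-like cells, which numbered 119, 101, 68 and 115. In conventional dendritic-like cells, 209, 110, 179 and 195 in number, the sum was 51638, 55694, 54466 and 59001 CPM. The Langerhans-like sum was the higher in each of the 4 libraries, narrowly so in the control diet library, although the ranges over the libraries of both pairs overlapped. Among the named classes B-like cells came next, with 14258, 15227, 15964 and 11111 CPM in 69, 45, 36 and 57 cells. The monocyte-like cluster, named only in the LNR pair and led by Arg1, Mmp12, Clec4n and Plac8, of which Arg1 and Mmp12 are also genes of activated macrophages, held 9124 CPM in the LNR library and 14045 CPM in the sham library, a range that overlapped with that of B-like cells. Macrophage-like cells lay lower, at 2681, 2307, 2692 and 2131 CPM, although they were the most numerous named immune class, with 604 to 790 cells a library. The mast-like cluster, named in the LNR pair, held 499.9 and 411 CPM. The top 10% of its cells held 100% of its member UMIs, and 1.12% of LNR cells and 5.80% of sham cells exceeded 1000 CPM. Exact 95% Poisson intervals were computed for these levels, and like every interval given here they cover counting error only. For the sham library they ran from 74732 to 76174 CPM in Langerhans-like cells and from 10526 to 11720 CPM in B-like cells.

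**Figure D1:**
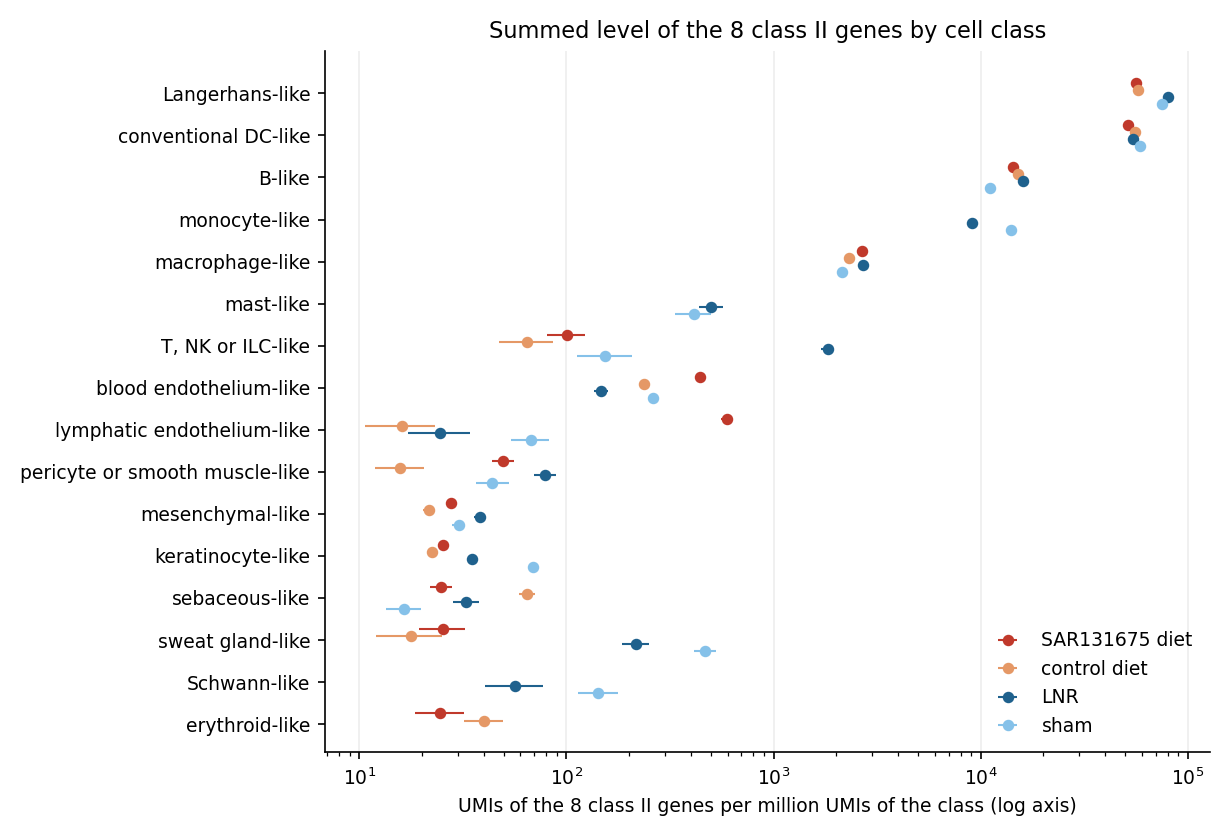
Summed CPM of the 8 class II genes (log axis) for each cell class, 1 point per library with its 95% counting interval. Langerhans-like and conventional dendritic-like points lie between 51638 and 80712 CPM and overlap, and the macrophage-like points lie between 2131 and 2692 CPM.

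The genes of the classical chains were each highest in the Langerhans-like and conventional dendritic-like classes. H2-Aa, the I-A alpha chain, stood at 12245, 11889, 15208 and 14576 CPM in Langerhans-like cells and at 11649, 12132, 10987 and 11584 CPM in conventional dendritic-like cells. In macrophage-like cells H2-Aa stood at 676, 559, 607 and 464 CPM. The dendritic classes did not overlap with the macrophage-like class in any of the 4 libraries. H2-Eb1, the I-E beta chain, was at 10254, 10233, 11603 and 10812 CPM in Langerhans-like cells against 9586, 9762, 7199 and 7721 CPM in conventional dendritic-like cells, and here the ranges of the 2 classes did not overlap. The gap was small within the SAR131675 pair and wider in the LNR pair. The invariant chain gene Cd74 stood at 23394, 25305, 35112 and 32276 CPM in Langerhans-like cells. Its level was 7123, 7959, 8343 and 6008 CPM in B-like cells and 1059, 943, 1185 and 965 CPM in macrophage-like cells. Of the member UMIs, Cd74 gave a larger part in B-like cells, with 499.6, 523, 523 and 541 of every 1000, than in Langerhans-like cells, with 417, 439.5, 435 and 428, and the ranges did not overlap.

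H2-Eb1 and H2-Ab1, the beta chain genes of I-E and I-A, stood in a ratio that was higher in the SAR131675 pair than in the LNR pair in each of 3 classes. In Langerhans-like cells there were 1271 and 1259 H2-Eb1 UMIs per 1000 H2-Ab1 UMIs in the SAR131675 pair and 734 and 729.6 in the LNR pair. Conventional dendritic-like cells gave 1309, 1233, 757 and 746 by the same measure, and B-like cells 1634, 1586, 776 and 760.2. Treated and control libraries of one pair were close in each of these classes. In every library the B-like ratio was the highest of the 3, narrowly so in the LNR pair. The pairs differ in batch, depth and Cell Ranger version, which cannot be told apart. H2-Ea, which would supply the partner chain of H2-Eb1, had 0 UMIs in all 4 libraries in Langerhans-like, conventional dendritic-like and B-like cells, which allows 1.63 to 4.55 CPM per library in the conventional dendritic-like class.

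**Figure D2:**
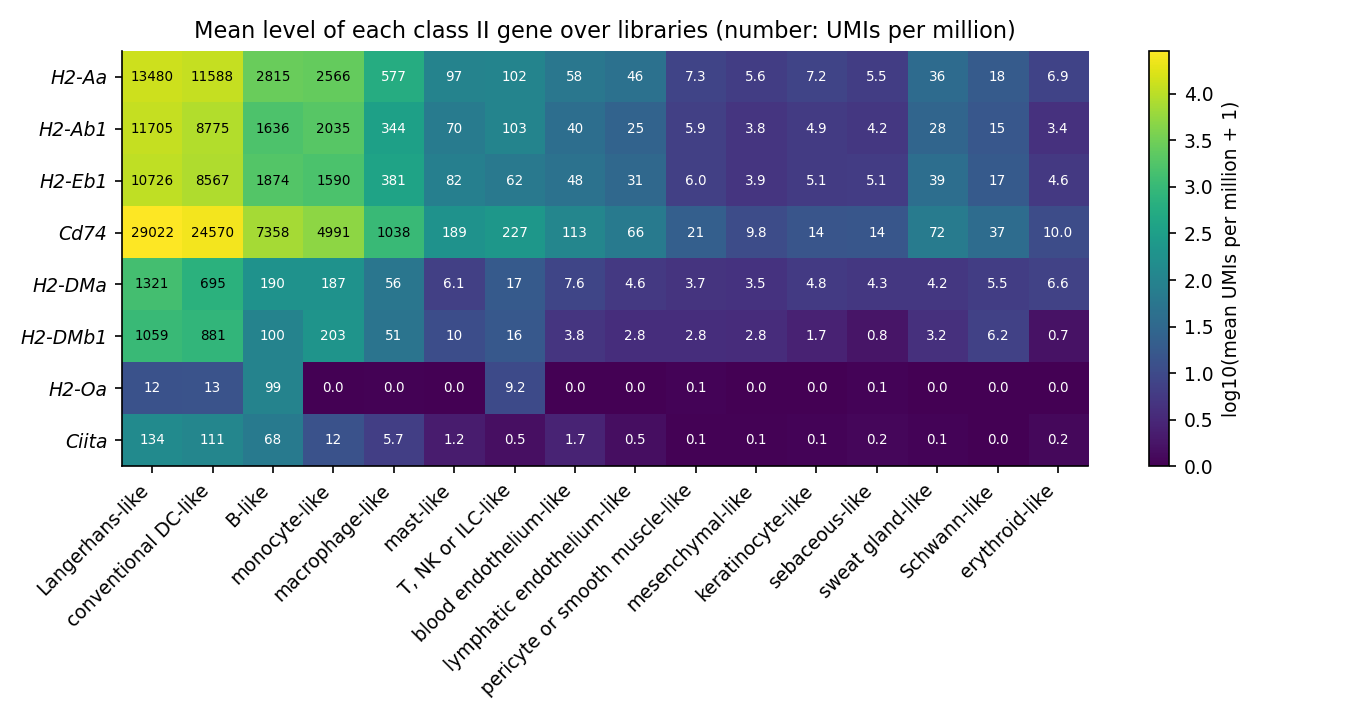
Mean level over libraries of each class II gene (rows) in each cell class (columns), coloured as log10 of CPM plus 1, with the CPM written in each field. The genes of the I-A and I-E chains and Cd74 are high in the same classes, whereas H2-Oa is highest in the B-like class.

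H2-DMa and H2-DMb1, the chains of the peptide editor H2-M, were also highest in the dendritic classes. H2-DMa was at 979, 937, 1635 and 1733 CPM in Langerhans-like cells and at 555, 528, 835 and 862 CPM in conventional dendritic-like cells. Within every library the Langerhans-like level was the higher of the pair of classes, and the ranges over libraries did not overlap. B-like cells held 128 to 267 CPM of H2-DMa and macrophage-like cells 49.3 to 62.1 CPM. H2-DMb1 stood at 973, 874, 1254 and 1133 CPM in Langerhans-like cells and at 802, 775, 970 and 979 CPM in conventional dendritic-like cells, with overlapping ranges. H2-DMb2, a near-identical neighbour of H2-DMb1 and no member, was at 303 to 393 CPM in Langerhans-like cells, 59.6 to 66.7 CPM in conventional dendritic-like cells and 222 to 441 CPM in B-like cells. How reads shared by such copies were counted was not examined, so H2-DMb1 levels are uncertain in Langerhans-like and B-like cells, where H2-DMb2 was high. In B-like cells H2-DMb1 stood at 148, 116, 120 and 16.5 CPM from at most 38 UMIs.

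H2-DMa and H2-DMb1 had a larger part of their UMIs outside the immune clusters than Cd74 in every library. Immune clusters held 59.1%, 54.3%, 88.8% and 87.4% of the H2-DMa UMIs and 87.2%, 86.4%, 87.0% and 86.3% of those of H2-DMb1, against 94.0% to 96.6% of those of Cd74. The low immune share of H2-DMa was a feature of the SAR131675 pair, and in the LNR pair H2-DMb1 had the lower share of these 2 genes. Keratinocyte-like cells held 28.2%, 33.9%, 6.14% and 8.28% of the H2-DMa UMIs. The H2-DMa level there was low, at 7.07 and 6.96 CPM in the SAR131675 pair and 2.13 and 2.89 CPM in the LNR pair. Of 1000 member UMIs in keratinocyte-like cells, 278, 310.0, 60.98 and 42.04 were H2-DMa, where immune clusters had 14.1, 13.6, 18.7 and 19.5. In mesenchymal-like cells the part was 176, 231, 54.0 and 68.1. Both classes outside the immune clusters thus lay above the immune ratio in every library. After every barcode with a UMI of 8 immune genes (Ptprc, Tyrobp, Fcer1g, Laptm5, Coro1a, Cd52, Rac2 and Cd53) was left out, keratinocyte-like H2-DMa stood at 7.10, 6.94, 1.65 and 2.02 CPM. H2-DMb1 showed the same pattern in mesenchymal-like cells, with 90.5, 97.4, 92.3 and 94.4 of 1000 member UMIs against 15.3 to 17.6 in immune clusters. Neither annotated H2-DMa start had an X or Y box of the letters searched in its window. No relation between this and the counts was tested.

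H2-Oa, the alpha chain of the H2-M inhibitor H2-O, was set apart from the other members by its place in B-like cells. It stood at 85.4, 67.1, 120.3 and 123 CPM there, from 22, 11, 9 and 15 UMIs, with intervals of 53.5 to 129, 33.5 to 120.1, 55.0 to 228 and 69.1 to 204 CPM. In conventional dendritic-like cells it was at 4.35, 8.37, 16.7 and 21.6 CPM, and in Langerhans-like cells at 3.17, 8.58, 20.4 and 16.1 CPM. The B-like range lay above both without overlap, although these were the classes with the highest levels of the other members. T, NK or ILC-like cells, at 8.62, 2.87, 11.5 and 14.0 CPM, overlapped with the dendritic classes for this gene alone among the members. Macrophage-like cells held 1 H2-Oa UMI in the SAR131675 library and 0 in the other 3, the monocyte-like cluster held 0, and endothelial-like cells held 0 in every library. A count of 0 allows up to 3 UMIs, which is 0.725 to 1.31 CPM in those macrophage-like cells, 5.15 and 9.34 CPM in the monocyte-like cluster and 0.327 to 0.537 CPM in endothelial-like cells. For each 1000 H2-DMa UMIs there were 667, 423, 450 and 600 H2-Oa UMIs in B-like cells and 7.84, 15.8, 20 and 25 in conventional dendritic-like cells. H2-Ob, the partner chain and no member, had its highest levels in the same class, with 173 to 299 CPM in B-like cells, 21.8 to 27.3 CPM in conventional dendritic-like cells and 0 to 5.55 CPM in Langerhans-like cells.

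**Figure D3:**
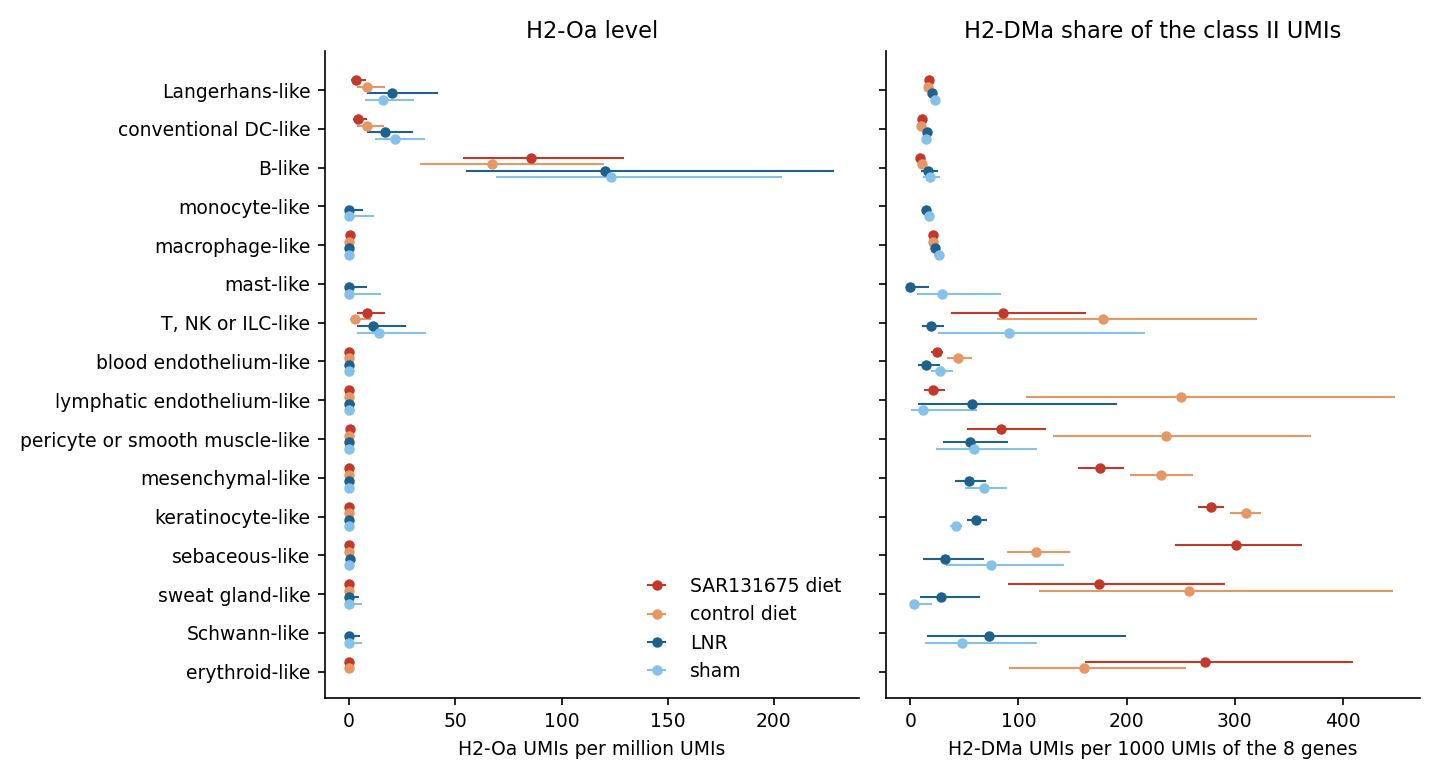
Left, H2-Oa level in CPM by cell class, 1 point per library, and right, H2-DMa UMIs per 1000 UMIs of the 8 class II genes. H2-Oa is highest in B-like cells at 67.1 to 123 CPM, and the H2-DMa part in keratinocyte-like cells is 278 and 310.0 per 1000 in the SAR131675 pair. Lines are 95% counting intervals.

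Ciita, the coactivator, was found in the same 3 classes as the genes it controls. It stood at 175, 203, 75.6 and 84.1 CPM in Langerhans-like cells, at 168, 154, 59.1 and 61.9 CPM in conventional dendritic-like cells, and at 113, 109.9, 26.7 and 24.7 CPM in B-like cells. Within every library the Langerhans-like level was the highest of the 3 and the B-like level the lowest, whereas the ranges over all 4 libraries, which mix 2 pairs of different level, overlapped. The B-like levels of the LNR pair rested on 2 and 3 UMIs, with intervals of 3.24 to 96.6 and 5.09 to 72.2 CPM. In every library the conventional dendritic-like interval overlapped with those of both other classes, so the counts do not settle this order. Macrophage-like cells held 9.62, 3.87, 4.07 and 5.24 CPM and the monocyte-like cluster 8.58 and 15.6 CPM. Keratinocyte-like cells held 0.0549 to 0.104 CPM. Ciita gave 3.19 and 3.02 of 1000 member UMIs in the immune clusters of the SAR131675 pair and 1.15 and 1.19 in those of the LNR pair, a difference between pairs that again cannot be told apart from batch and processing.

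Levels per cell showed which classes were uniform. Every Langerhans-like cell held a member UMI after thinning to 1500 UMIs, and the lowest 10% of these cells lay at or below 38944, 20691, 67242 and 58830 CPM, beside medians of 55218, 56827, 84093 and 75764 CPM. B-like cells exceeded 10000 CPM in 84.1%, 73.3%, 77.8% and 63.2% of cells. Macrophage-like cells were the contrast, as only 7.83% to 10.2% of them exceeded 10000 CPM and the top 10% of cells held 87.7% to 91.9% of their member UMIs. After thinning, 29.3% to 30.1% of macrophage-like cells had a member UMI, against a mean of 3.81% in keratinocyte-like cells, which serve as the background class. In the monocyte-like cluster 26.4% of LNR cells and 32.4% of sham cells exceeded 10000 CPM.

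The macrophage-like class was made of clusters with very different class II levels. The cluster led by Vsig4, Trem2 and Cx3cr1 held 46.4 and 63.3 CPM in the SAR131675 pair and 128 and 96.7 CPM in the LNR pair, from 68 to 104 cells a library. A cluster led by Cxcl13, Cd36 and Lyz1 held 7510 and 7841 CPM in the SAR131675 pair, and one led by Pf4 and Lyve1 held 5461 and 3877 CPM in the LNR pair. Clusters led by Mrc1, Retnla, Ccl8 or Cd209f lay between, at 822 to 1904 CPM. The difference between clusters was thus larger than that between treated and control libraries within any of them. Pf4 and Lyve1 mark tissue-resident macrophages, and Trem2 and Vsig4 mark macrophages that clear debris and complement-coated particles.

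Many class II UMIs lay in immune clusters without a name, 144414 over the 4 libraries. Conventional dendritic-like cells had 225109, Langerhans-like cells 194267 and macrophage-like cells 35352. The unnamed immune clusters held 8203, 9755, 6443 and 7276 CPM in 502, 341, 902 and 779 cells. They included clusters led by the cell cycle genes Ube2c and Top2a, at 25835 and 23941 CPM in the SAR131675 pair and 8808 and 6761.1 CPM in the LNR pair. Others were led by keratin genes: 4807 and 6943 CPM were found where Krt25 and Krt71 led, and 7305 and 8648 CPM where Krt42 and Krt90 led. Scrublet called 48.4%, 9.09%, 43.0% and 44.0% of the unnamed immune cells doublets, and the part of doublets in these levels was not tested. A cluster of the SAR131675 pair led by Camp, a granule gene of the neutrophil lineage, held 15341 and 11532 CPM, and 41.1% and 30.0% of its cells exceeded 10000 CPM. The monocyte marker list scored highest in this cluster, and the name was withheld because granule genes were among its first leading genes.

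Outside the immune clusters the summed level was far below that of the dendritic classes. Keratinocyte-like cells held 25.4, 22.4, 34.9 and 68.6 CPM and mesenchymal-like cells 27.7, 21.8, 38.3 and 30.2 CPM. Blood endothelial-like cells held 443, 237, 147 and 262 CPM, and lymphatic endothelial-like cells 595, 16.1, 24.7 and 67.1 CPM. The endothelial values rested on few barcodes. In the SAR131675 library, 9 of 800 blood endothelial-like cells held 96.1% of that class's member UMIs and 2 of 248 lymphatic endothelial-like cells held 95.8%. In the other libraries 7 to 10 blood endothelial-like cells held 86.6% to 90.1%. Without barcodes that had a UMI of the immune genes, blood endothelial-like cells stood at 18.9, 29.9, 17.8 and 23.0 CPM and lymphatic endothelial-like cells at 26.9, 16.1, 17.1 and 21.6 CPM. Keratinocyte-like cells then stood at 22.1, 19.3, 18.4 and 25.5 CPM and mesenchymal-like cells at 20.1, 17.8, 24.4 and 25.8 CPM. All 4 classes then lay between 16.1 and 29.9 CPM. Blood and lymphatic endothelial-like ranges overlapped both with and without these barcodes.

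**Figure D4:**
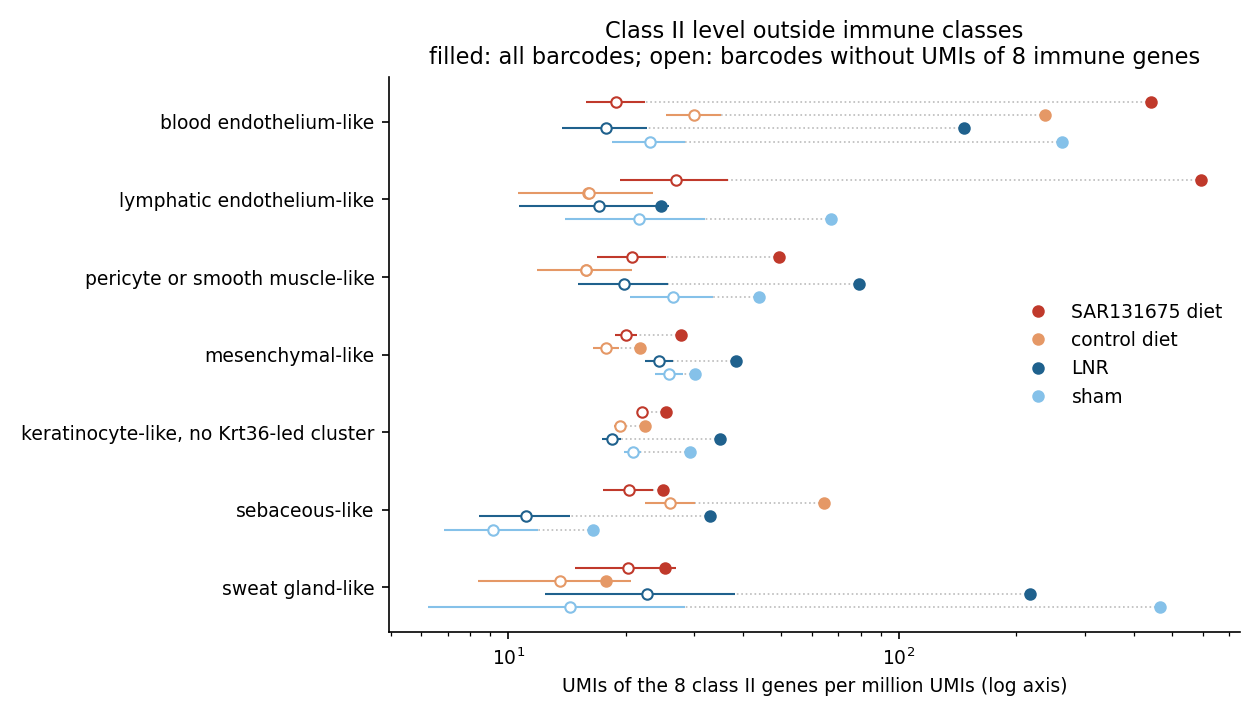
Summed CPM of the 8 class II genes (log axis) in classes outside the immune clusters, per library, with filled points for all cells, open points for cells without a UMI of the 8 immune genes, lines for 95% counting intervals, and keratinocyte-like cells without the Krt36-led cluster. In blood and lymphatic endothelial-like, keratinocyte-like and mesenchymal-like cells the open points lie between 16.1 and 29.9 CPM, while filled endothelial points reach 595 CPM.

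One keratinocyte-like cluster stood apart. It was led by Krt36 and Krt84, hard keratin genes, and had 388 cells in the sham library and 6 in the LNR library. In the sham library its summed level was 605 CPM and 94.8% of its cells had a member UMI. It also held 5.41 CPM of Ptprc, 11.7 of Cd207, 40.6 of C1qa and 88.2 of Lyz2, which are immune genes. In its 68 cells without a UMI of the immune genes, 17.5% of the cluster, the level was 428 CPM (95% interval 386 to 473). The part of RNA from immune cells in the cluster was not tested beyond this value.

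For SAR131675 the comparison asks whether blocking VEGFR3 was accompanied by another class II level. Summed over all kept cells it was 709.7 CPM with the inhibitor and 591 CPM with the control diet, a log2 ratio of 0.26 (95% interval 0.25 to 0.27). Leaving out barcodes that held UMIs of other classes turned it to -0.87, an alternative that kept 4.55% of the immune barcodes with the inhibitor and 13.3% without. In it an immune barcode was left out for more than 1 keratinocyte or fibroblast marker gene. Any other barcode was left out for a UMI of the 8 immune genes. UMIs of one immune class in another were not looked for. With every kept barcode, all 8 members were higher, with a median of 0.29 beside -0.01 over all genes tested. Yet 0 of 8 passed a 1.5-fold difference, which 3.28% of all genes passed upward and 3.42% downward. In all immune clusters the log2 ratio was 0.08, with 8 of 8 members higher and 0 past the fold, beside 2.96% of all genes up and 3.17% down. The ratio of the immune clusters turned to -0.32 with classes taken from markers in each barcode. Pooled values also depend on the mix of classes. Conventional dendritic-like cells were 0.719% of kept cells with the inhibitor and 0.458% with the control diet. Langerhans-like cells were 0.409% and 0.420%. The part of this mix in the pooled ratios was not tested. Within the dendritic classes the levels were nearer to each other, with log2 ratios of -0.04 in Langerhans-like cells and -0.11 in conventional dendritic-like cells. There 0 of 7 members with at least 50 UMIs passed the fold in either class, beside 3.91% up and 6.66% down of all genes in the first and 3.9% and 5.86% in the second. In B-like cells 0 of 6 passed, beside 6.72% up and 14% down. In macrophage-like cells the log2 ratio was 0.22, or -0.045 with classes taken from markers in each barcode, and 1 of 7 passed upward, beside 2.43% of all genes up and 2.92% down. It was Ciita, with 49 UMIs against 16 and a log2 ratio of 1.31 (interval 0.48 to 2.23).

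Wider differences of the SAR131675 pair were found in other classes. Pericyte or smooth muscle-like cells held 49.5 CPM with the inhibitor and 15.8 CPM without (log2 ratio 1.65, from 251 and 55 UMIs), whereas sebaceous-like cells held 24.9 and 64.5 CPM (log2 ratio -1.37, from 249 and 491 UMIs). These classes went opposite ways. UMIs of the 8 immune genes went the same way as the members in each. They stood at 25.2 and 7.76 CPM in the first class and 6.60 and 12.0 CPM in the second. The top 10% of cells held 89.6% and 98.2% of the member UMIs in the first class and 65.1% and 86.2% in the second. Without barcodes holding immune UMIs the levels were 20.8 and 15.8 CPM, and 20.3 and 26.0 CPM. Immune and member UMIs did not go together in every class. Sweat gland-like cells of this pair held 8.02 and 84.2 CPM of the immune genes, beside 25.2 and 17.8 CPM of the members. Endothelial-like cells of both kinds together held 469.9 CPM with the inhibitor and 184 CPM without, a log2 ratio of 1.35 (interval 1.27 to 1.44), and 5 of 6 members passed upward beside 2.88% of all genes up and 3.07% down. Those 5 were H2-Aa at 1.80, H2-Ab1 at 1.27, H2-Eb1 at 1.82, Cd74 at 1.07 and H2-DMb1 at 1.00. With Scrublet doublets left out the log2 ratio turned to -2.05, and without barcodes holding UMIs of immune genes to -0.38, and these alternatives leave out barcodes such as the few described above. Doublet calls differed, at 13.9% of blood endothelial-like cells with the inhibitor and 4.26% without, and at 8.47% and 0% of lymphatic endothelial-like cells. In the Camp-led cluster 3 of 6 members passed upward beside 7.51% of all genes up and 9.17% down: H2-Eb1 at 0.63, H2-DMa at 0.60 and H2-DMb1 at 0.74. That cluster had 95 and 60 cells.

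For LNR the same question was asked against the sham side. Over all kept cells the sum was 877 CPM in the LNR library and 955 CPM in the sham library (log2 ratio -0.12, or 0.22 without barcodes holding UMIs of other classes), with 7 of 8 members lower and 0 past the fold beside 2.36% of all genes up and 1.26% down. In immune clusters it was 10282 and 13319 CPM, a log2 ratio of -0.37, with 8 of 8 lower and 0 past the fold beside 2.94% up and 2.01% down. Langerhans-like cells were 68 of 2459 immune cells after LNR and 115 of 2226 in the sham library. Conventional dendritic-like cells were 179 and 195 of them. The part of this mix of classes in the pooled ratios was not tested. Langerhans-like cells gave 0.10 and conventional dendritic-like cells -0.12, with 0 of 7 members past the fold in each. The background was 3.8% up and 5.14% down in the first and 3.56% up and 4.44% down in the second. Macrophage-like cells gave 0.34, with 0 of 6 members past the fold beside 2.16% up and 1.64% down, and -0.23 without barcodes holding UMIs of other classes.

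Larger differences between LNR and sham were found in smaller classes. In the monocyte-like cluster 5 of 6 members passed downward beside 5.69% of all genes down and 8.03% up, and H2-DMa, at 130.4 and 243 CPM, had the lowest log2 ratio of the 6, at -0.90. The sixth was Cd74 at -0.51, and the summed log2 ratio was -0.62, in 125 and 74 cells. Leaving out barcodes that held UMIs of other classes turned it to 0.11. In B-like cells the sum gave 0.52, and 2 of 4 members passed upward beside 8.69% of all genes up and 8.22% down, H2-Ab1 at 0.65 and H2-Eb1 at 0.68. That class had 36 and 57 cells, and its lowest 25% of cells lay at or below 11698 CPM after LNR and 221 CPM in the sham library. The part of such low cells in the B-like ratio was not tested. T, NK or ILC-like cells held 1828 CPM after LNR, against 154 CPM in the sham library, and their log2 ratio was 3.56 (interval 3.13 to 4.04), where 4 of 4 members passed upward beside 4.4% of all genes up and 7.61% down. The cluster led by Ccl5 and Gzma, genes of cytotoxic lymphocytes, held most of them, with 2193 CPM in 147 LNR cells and 195 CPM in 101 sham cells. The top 10% of the LNR cells of the class held 97.5% of the UMIs, and without barcodes holding UMIs of other classes the log2 ratio was -0.46. That alternative left out immune barcodes for keratinocyte or fibroblast markers and did not look for UMIs of dendritic or B-like cells. Endothelial-like cells gave -0.89, with 4 of 4 members down beside 1.9% of all genes down and 1.45% up, and turned to 0.20 without the upper limits on genes and UMIs. For LNR and sham, sweat gland-like cells held 217 and 468 CPM and Schwann-like cells 56.6 and 142.9 CPM. Sebaceous-like cells, at 32.8 and 16.5 CPM, and pericyte or smooth muscle-like cells, at 79.1 and 44.0 CPM, went the other way. The top 10% of cells held 81.3% to 100% of the member UMIs in these classes. UMIs of the 8 immune genes stood at 94.5 and 101 CPM in sweat gland-like and 128 and 124 CPM in Schwann-like cells. They were at 11.5 and 21.7 CPM in sebaceous-like cells, against the direction of the members, and at 83.5 and 45.1 CPM in pericyte or smooth muscle-like cells. Their part in the member levels was not tested.

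Keratinocyte-like cells gave -0.98 after LNR, with 4 of 6 members down beside 4.87% of all genes down and 0.826% up. The 4 were H2-Aa, H2-Ab1, H2-Eb1 and Cd74, and H2-DMa (-0.44) and H2-DMb1 (-0.33) did not pass. The class lost the direction without the Krt36-led cluster, which was left out as a further alternative chosen on seeing these values. The levels were then 34.9 CPM after LNR and 29.2 CPM for sham, and the log2 ratio was 0.26. That cluster had 6 LNR cells and 388 sham cells.

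**Figure D5:**
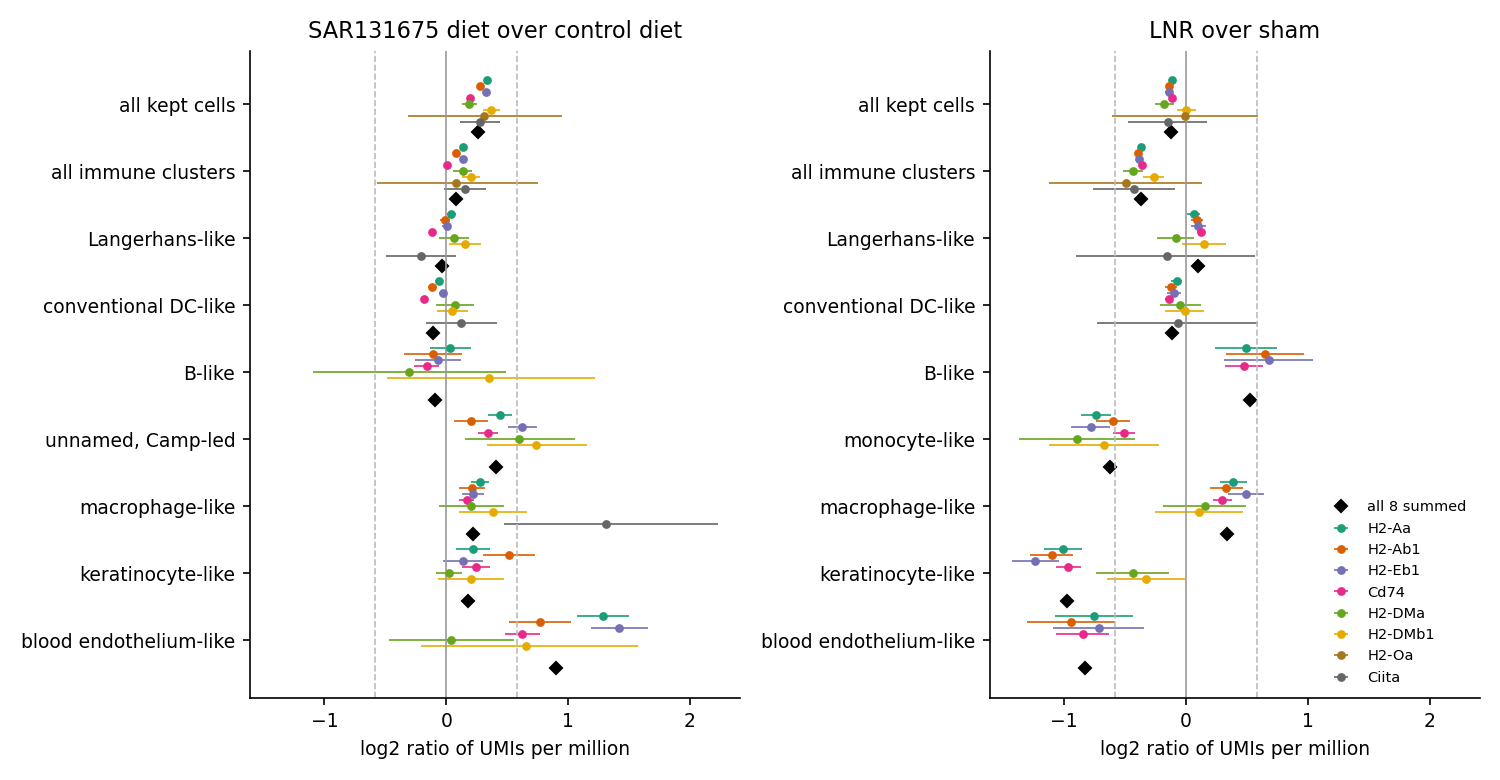
Log2 ratio of treated to control level for the class II genes by cell class, SAR131675 over control diet on the left and LNR over sham on the right, with 95% counting intervals, black diamonds for the sum and dashed lines at a 1.5-fold difference. Langerhans-like and conventional dendritic-like sums lie within -0.12 to 0.10 in both pairs, and the macrophage-like Ciita ratio of the SAR131675 pair lies at 1.31.

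Other genes of the pathway were read in conventional dendritic-like cells from lists of neighbouring function. Of the endosomal processing genes, Ctss, the protease that trims the invariant chain, stood at 1405 to 1882 CPM over the 4 libraries, Ifi30, a lysosomal thiol reductase, at 541 to 829 CPM, and Cd83, which slows the turnover of class II molecules, at 689 to 835 CPM. Ctss was higher still in macrophage-like cells, at 2213 to 2741 CPM, where the class II chains were low. The class II genes that are no members stood at 59.6 to 66.7 CPM (H2-DMb2), 21.8 to 27.3 CPM (H2-Ob) and 0 to 10.6 CPM (H2-Eb2). Among costimulatory genes Cd86 stood at 77.7 to 509.7 CPM and was highest in Langerhans-like cells at 466 to 1403 CPM, while Cd80 and Icosl stood at 44.6 to 142 and 33.2 to 56.1 CPM in conventional dendritic-like cells. Of the transcription factors, Spi1 was at 337 to 477 CPM, Irf8 at 97.0 to 179.5 CPM and Irf4 at 91.4 to 173 CPM. The interferon gamma receptor gene Ifngr1 was at 288 to 452 CPM and the kinases Jak2 and Jak1 at 123 to 315 and 92.5 to 330 CPM. The class I comparison genes B2m, H2-D1 and H2-K1 stood at 1117 to 1224, 1067 to 1499 and 652 to 695 CPM. With SAR131675, 0 of 8 processing genes passed the fold in these cells, 1 of 7 transcription factors passed upward (Irf8, 0.87), 1 of 9 class I genes upward (Psmb9, an immunoproteasome subunit, 1.12) and 1 of 5 costimulatory genes downward (Icosl, -0.60). After LNR, 0 genes of the 6 lists passed in these cells. The share of all genes past the fold given above for these cells applies to both.

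The genes whose level was most like that of the summed members were sought over 56 points, each a cell class in a library with at least 20 cells, by Pearson's r of log2 CPM plus 1 among 16039 genes. The points share libraries and depth, so r is a description. Napsa, an aspartic protease, had r of 0.947, Rnase6 0.941, Slamf7 0.931, Pkib 0.928, Cd86 0.928 and Cd83 0.927. The next 4 were Themis2 at 0.923, Ctss at 0.921, Spi1 at 0.915 and Alox5ap at 0.888. Napsa, Rnase6 and Slamf7 were also the leading genes for H2-DMa, at 0.932, 0.952 and 0.932. For H2-DMb1 they were Cd86 at 0.933, Rnase6 at 0.933 and Pkib at 0.929, and for Ciita Rnase6 at 0.958, H2-DMb2 at 0.937 and Napsa at 0.931. Most of these genes thus recurred from one member to the next. Among the members, H2-Aa, H2-Ab1, H2-Eb1 and Cd74 had r of 0.992 to 0.995 with each other. H2-Oa had r of only 0.623 to 0.707 with the other members, and its leading genes were others: Ccr7, the receptor that guides lymphocytes and dendritic cells to lymph nodes, at 0.893, P2ry10 at 0.887 and Map4k1 at 0.874. H2-Oa had only 57, 36, 48 and 51 UMIs, short of the 500 UMIs over all libraries asked of the compared genes. The effect of so few counts on its r was not tested.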

How the data were processed

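The authors deposited UMI counts per gene and barcode for each library (10x Genomics 3′ chemistry), made with Cell Ranger on GRCm39. Submitters' processing notes name version 6.1.2 for all, whereas file headers name 8.0.1 for the SAR131675 pair. Barcodes were filtered as given above. Each pair was clustered alone with scanpy 1.11.5 (Python 3.11.15; 2000 variable genes without members or list genes, 30 components, 20 neighbours, Leiden resolution 0.7). Clusters with Ptprc in at least 25% of cells were immune and were clustered again. A class name needed a marker score of at least 0.35, a runner-up below 0.75 of it and 3 markers found, a rule set after seeing the scores. Counts were summed per class and library and given as CPM. Intervals are exact (Poisson, or binomial for ratios and shares, 95%, scipy 1.17.1). Members with at least 50 UMIs in a pair were read against a 1.5-fold difference. With 1 library per condition no model was fitted and no p was computed. All 8 members were described; 3 genes per list were named by level in conventional dendritic-like cells, as were the 10 of highest r for the sum and 3 for each of 4 members, and others were chosen after their values were seen. The members and lists were chosen with earlier results of these data known. The pipeline was tested on simulated data. One result of the interferon gamma pathway list is not reported here.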

Additional observations from a re-analysis of the deposited data

How the results depend on the processing

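Of 122 alternative log2 ratios, 19 had the other sign from the reported value, 8 of them where the reported ratio was past 1.5-fold. Classes taken from markers in each barcode gave mean summed levels of 63205 CPM in conventional dendritic-like, 17035 in B-like, 5770 in macrophage-like and 362 in keratinocyte-like cells (55200, 14140, 2453 and 37.9 as reported), a dendritic and Langerhans-like share of 17.5%, an immune share of 37.2%, an H2-DMa share outside immune clusters of 69.2% (27.6% as reported), and endothelial log2 ratios of 1.74 (SAR131675) and -1.37 (LNR). Without upper limits on genes and UMIs, macrophage-like cells held 1934 CPM, the shares were 51.002% and 92.8%, and log2 ratios were 0.075 (SAR131675, all kept), 0.39 (SAR131675, endothelial-like), -0.74 (LNR, monocyte-like), 0.20 (LNR, endothelial-like) and -4.52 (SAR131675, T, NK or ILC-like). With the upper limits, T, NK or ILC-like cells held 100.2 CPM with the inhibitor and 64.5 CPM with the control diet. Without Scrublet doublets, blood endothelial-like cells held 117 CPM, and log2 ratios were 0.20 (SAR131675, all kept), -2.05 (SAR131675, endothelial-like), -0.053 (LNR, all kept), -0.77 (LNR, monocyte-like) and -0.24 (LNR, endothelial-like). At Leiden resolution 1.2 the dendritic and Langerhans-like share was 46.6%, and log2 ratios were 0.092 (SAR131675, endothelial-like), -0.72 (LNR, monocyte-like) and 0.17 (LNR, endothelial-like). Averaged over cells, B-like and macrophage-like cells held 18639 and 3289 CPM, and log2 ratios were 0.27 and 0.96 (SAR131675, all kept and endothelial-like) and -0.15 and -0.44 (LNR, the same). Without barcodes holding UMIs of other classes, which left 4.55%, 13.3%, 31.9% and 30.8% of immune barcodes and so fixes much of the ratio over all kept cells, B-like, macrophage-like and blood endothelial-like cells held 19438, 4238 and 22.4 CPM, the immune share was 70.4%, the H2-DMa share outside 60.8%, and log2 ratios were -0.87 and -0.38 (SAR131675, all kept and endothelial-like), 0.22, 0.11 and -0.37 (LNR, all kept, monocyte-like and endothelial-like) and -0.46 (LNR, T, NK or ILC-like). For immune barcodes, UMIs of other classes there means keratinocyte or fibroblast markers alone. That alternative left 92.0% to 95.3% of keratinocyte-like barcodes. Its immune share of 70.4% and H2-DMa share of 60.8% are thus also largely set by which barcodes it left out. Without the Krt36-led cluster, LNR ratios were -0.14 (all kept) and 0.26 (keratinocyte-like). The share of keratinocyte-like cells with a member UMI was 6.90% when thinned to 3000 UMIs and 19.0% unthinned. At a minimum of 200 UMIs, 309 genes passed upward and 324 downward for SAR131675 over all kept cells (676 and 705 as reported), and 152 and 81 for LNR (410 and 219). The cause of these shifts was not tested. No paired analysis was possible because each condition had 1 library. Classes under 100 cells rest on few UMIs for H2-Oa and Ciita, pooled mice give no spread between animals, and free RNA was not modelled.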
